A study of Mus musculus with 2 samples.

Results

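The metabotropic glutamate receptors are G protein-coupled receptors for glutamate, the main excitatory transmitter of the cortex. The family was examined here in the cortex of mice that lack P4H-TM, the transmembrane prolyl 4-hydroxylase of the endoplasmic reticulum. The genes were chosen by name, with earlier results of these data known, as those that the array annotation gives as the only symbol of a probe set. These were Grm5 of group I, Grm2 and Grm3 of group II, and Grm4, Grm7 and Grm8 of group III, which makes 6 of 18193 measured genes, with 9 probe sets.

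Cortexes were collected from male P4H-TM KO mice and from their WT littermates, all of strain C57BL/6J, 2.5 months old and untreated. The RNA of 4 mice was pooled for each genotype and hybridized to 1 Affymetrix mouse genome array, so the study has 2 arrays. No difference could be checked in a replicate, and neither a p-value nor a spread between animals can be given. The tissue is whole cortex, in which fewer cells of a type and less RNA per cell cannot be told apart.

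Metabotropic receptors work as dimers that bind glutamate in a large extracellular domain and act through G proteins, which is slower than the current through ionotropic receptors. Group I receptors couple to Gq and phospholipase C, which releases calcium from the endoplasmic reticulum, and lie mainly around the postsynaptic density. Receptors of groups II and III couple to Gi/o, lower cyclic AMP and mostly restrain transmitter release from presynaptic terminals, while the group II receptor mGluR3 is also abundant in astrocytes. The comparison of the genotypes asks whether the mRNA of these receptors, one route by which glutamate raises or restrains cellular calcium, differed in cortex without P4H-TM.

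All 6 receptor genes had close values on both arrays, with log2 differences, P4H-TM KO minus WT, between −0.09 and 0.09. Group I and group II genes were nominally higher in P4H-TM KO cortex, and group III was mixed. Of all measured genes 46.0% were higher and 49.0% lower. None of the 6 genes was 1.5-fold higher or lower, against 0.61% of all measured genes at least 1.5-fold higher and 0.148% at least 1.5-fold lower. At 1.2-fold the count was also 0 of 6 in each direction, against 4.12% of all genes higher and 4.91% lower. With 6 genes and background shares this low, counts of 0 do not set the receptors apart from other genes. By comparison the targeted gene, P4htm, was at a log2 value of 9.10 in P4H-TM KO and 11.05 in WT on the brighter of its probe sets, a 3.86-fold lower value without P4H-TM.

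The scale of these values has 2 yardsticks within the arrays. Where a gene had at least 2 probe sets above the signal filter, set at the median of all probe sets, 6.385, their log2 differences varied with a pooled SD of 0.10 (5101 genes). This describes how well separate probe sets repeat a difference within this pair of arrays, not how far mice vary. Over all 18193 genes the median difference was 0.00 and the middle 90% lay between −0.26 and 0.24. A difference of at most 0.09 in size, the widest of the receptor genes on their brightest probe sets, was found for 56.3% of all genes and for 65.8% of the 11730 genes above the filter. All 6 receptor genes had a mean signal above that filter. Levels of different probe sets are not compared below, since each binds its own target with its own strength.

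Grm5, which encodes mGluR5, the group I receptor of this set, has 2 probe sets. The brighter one had a log2 value of 12.29 in P4H-TM KO and 12.24 in WT, a difference of 0.05 or 1.04-fold. The other had 12.24 in P4H-TM KO and 12.23 in WT, a difference of 0.01. Both probe sets thus placed P4H-TM KO above WT by less than the spread between probe sets, and they differed from each other by 0.04.

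Grm2 and Grm3 encode the group II receptors mGluR2 and mGluR3, and each has 1 probe set here. Grm2, mainly a presynaptic receptor of neurons, had 8.32 in P4H-TM KO and 8.23 in WT, a log2 difference of 0.09 or 1.06-fold. A further probe set that carries Grm2 together with another gene was left out. Grm3, which is expressed in neurons and astrocytes, had 10.99 in P4H-TM KO and 10.95 in WT, a difference of 0.04 or 1.03-fold. Both group II genes were nominally higher in P4H-TM KO, again by less than 0.10.

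Grm4, Grm7 and Grm8 encode the group III receptors, which sit in or near the active zone of the presynaptic terminal. Grm4 had 7.39 in P4H-TM KO and 7.48 in WT on its 1 probe set, a log2 difference of −0.09, and was the only receptor gene whose single probe set had a lower value in P4H-TM KO. Grm8 had 6.45 in P4H-TM KO and 6.38 in WT, a difference of 0.07, with a WT value just under the median of all probe sets. These 2 genes of one group differed in opposite directions by similar amounts.

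Grm7, whose receptor mGluR7 has a low affinity for glutamate, has 3 probe sets that did not give the same difference. The brightest had 10.33 in P4H-TM KO and 10.35 in WT, a log2 difference of −0.02. The second had 6.87 on both arrays. The dimmest had 4.17 in P4H-TM KO and 4.55 in WT, a difference of −0.38, or 1.30-fold lower. It is the only one of the 9 receptor probe sets past 1.2-fold, and its signal was below the filter on both arrays. Of the 15012 probe sets below the filter, 9.47% were lower in P4H-TM KO by 1.2-fold or more, and their middle 90% ranged from −0.33 to 0.30. Which transcripts of Grm7 each probe set binds is not given in the sources used here, and the probe sets well above the filter did not carry the difference.

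**Figure D1:**
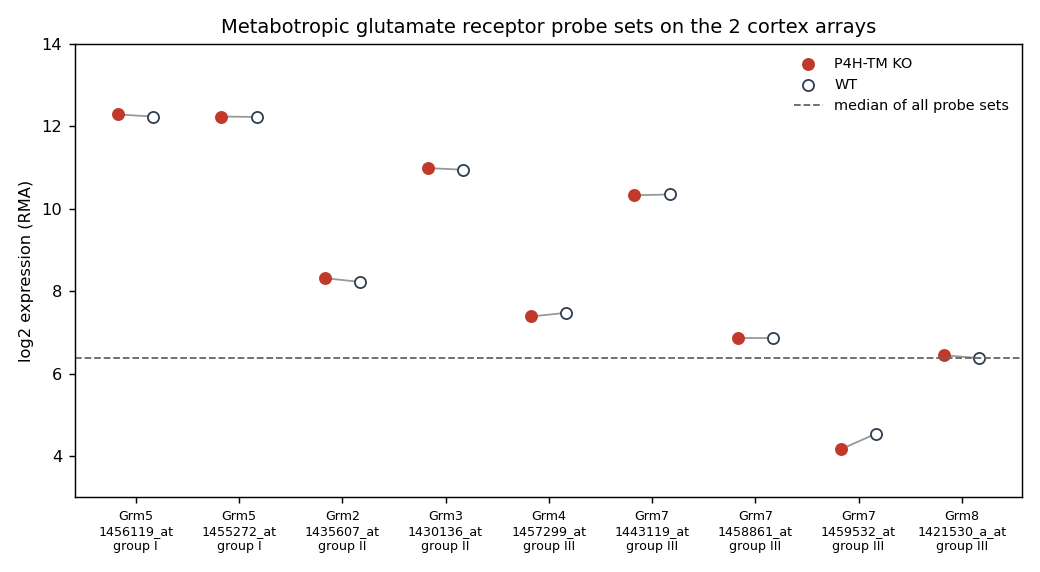
Log2 expression on the probe sets of the 6 receptor genes named on the horizontal axis, in P4H-TM KO (red points) and WT (open circles) cortex, joined by a line, with the median of all probe sets dashed. Error bars are lacking as each genotype has a single array. The pairs are nearly level except the dimmest Grm7 probe set, at 4.17 in P4H-TM KO and 4.55 in WT.

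The receptor groups were set side by side by their median log2 difference, P4H-TM KO minus WT. This was 0.05 for group I, from Grm5 alone, 0.065 for the 2 genes of group II and −0.02 for the 3 genes of group III, against 0.00 over all genes. The median of group II exceeded that of group III by 0.085 and that of group I by 0.015, and group I exceeded group III by 0.07. No test of these gaps is possible with 1 array per genotype. The ranges of groups II and III overlapped, since Grm8 of group III had 0.07 and Grm3 of group II had 0.04. Group III had 1 gene higher and 2 lower in P4H-TM KO, and with the probe sets of each gene averaged its median was −0.09. In that setting Grm7 had −0.13, because the dim probe set then counts as much as the others.

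**Figure D2:**
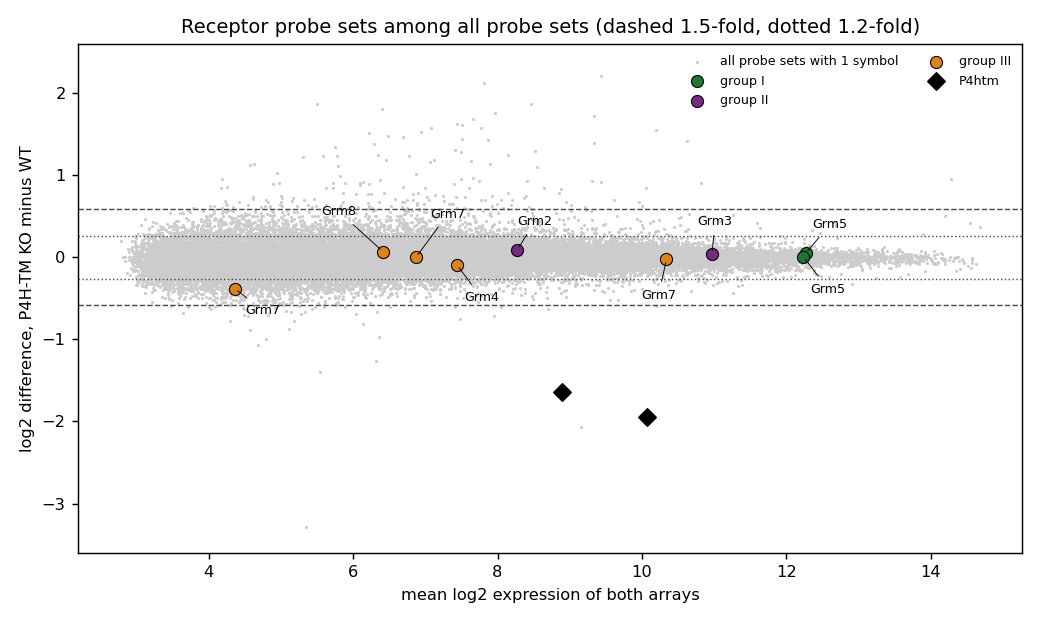
Log2 difference, P4H-TM KO minus WT, against the mean log2 expression of both arrays, for all probe sets with 1 gene symbol (grey), the receptor probe sets by group (coloured) and P4htm (diamonds). Dashed and dotted lines mark 1.5-fold and 1.2-fold. All receptor probe sets lie within the 1.2-fold lines except the dim Grm7 probe set at −0.38, while P4htm lies at −1.95 and −1.64.

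The mRNAs of proteins that carry the signal of group I receptors were measured on the same arrays. Of 11 measured genes of the Gq and phospholipase C arm, 11 were nominally lower in P4H-TM KO, with a median log2 difference of −0.08, whereas 49.0% of all genes had lower values and the median of all genes was 0.00. No gene of this arm was 1.2-fold lower, so the differences were small for each gene. The lowest were Gna14, which encodes a Gq family α subunit, at −0.23 with a signal below the filter, and Plcb4, a phospholipase C β isoform, at −0.18. Other probe sets of both genes had differences of the opposite sign, up to 0.32 for Gna14 and 0.30 for Plcb4. Closest to 0 were Gna11, Plcb3 and Prkcb, each at −0.02. The other Gna11 probe set was higher by 0.01. Of the 3 Prkcb probe sets 2 were lower, and the second brightest was level.

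Within this arm, 2 further genes were picked out after their values were seen. Plcb1, the phospholipase C β isoform typical of cortical neurons, had 12.32 in P4H-TM KO and 12.42 in WT on its brightest probe set, and its 5 probe sets all differed downward, from −0.12 to −0.04. Gnaq, the main Gq α subunit, had 12.42 in P4H-TM KO and 12.49 in WT, with 6 of 7 probe sets lower. Grm5 itself, upstream of these genes, had higher values by 0.05 and 0.01, as given above. With the probe sets of each gene averaged, 10 of the 11 genes of the arm had lower values. The list was written with earlier results of these arrays known, and its genes are not independent samples.

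Scaffolds of the postsynaptic density hold group I receptors in place, with Homer proteins binding the receptor tail and Shank and the SAPAP proteins (Dlgap genes) linking them to PSD-95 (Dlg4). Of 10 measured genes 4 were above WT, 5 below and 1 level with it, and the median log2 difference was −0.015. For this and the following lists, the shares over all genes were 46.0% above WT and 49.0% below. Homer3 had 7.29 in P4H-TM KO and 7.58 in WT, a difference of −0.29, which makes it the 1 gene of this list at least 1.2-fold lower. Of all genes 4.91% were at least 1.2-fold lower. Homer2 differed by −0.12, Dlgap3 by 0.15 and Dlg4 by 0.07. Homer1, picked out after its values were seen, differed by 0.01 on its brightest probe set, but its 6 probe sets ranged from −0.55, on one with 3.92 in P4H-TM KO and 4.47 in WT, to 0.35, on one with 10.81 in P4H-TM KO and 10.46 in WT. Homer1 gives both long scaffolding forms and a short form induced by neuronal activity, and which probe set binds which form is not given in the sources used here.

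Receptors of groups II and III act through Gi/o proteins, adenylyl cyclases and the inwardly rectifying potassium channels that βγ subunits open. Of 23 measured genes of this arm, 13 were above and 10 below their WT values in P4H-TM KO, and the median log2 difference was 0.02. Adcy8, a calcium-stimulated adenylyl cyclase, had 7.78 in P4H-TM KO and 7.37 in WT on its 1 probe set, a difference of 0.41, and was the 1 gene past 1.2-fold. A count of 1 in 23 is close to the share over all genes, of which 4.12% were at least 1.2-fold higher. The study printed Adcy8 among genes it selected on these arrays, so its value is not independent evidence of a direction. Gng3, a γ subunit of neurons, and Kcnj9, a subunit of the G protein-gated potassium channel, each differed by 0.20, although the probe sets of Kcnj9 ranged from 0.00 to 0.36. The lowest values relative to WT were those of the cyclase gene Adcy7, at −0.15, and the channel subunit gene Kcnj3, at −0.12, and both genes had other probe sets with higher values in P4H-TM KO.

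Kinases, arrestins and RGS proteins end or shape receptor signals, and of 18 measured genes 9 were above WT, 8 below and 1 level with it. Their median log2 difference was 0.02, and no gene passed 1.2-fold. Rgs4, which speeds the shut-off of Gq and Gi/o, differed by 0.13, with −0.01 and 0.06 on its other probe sets. Rgs17 differed by 0.11. Rgs14 differed by −0.20. Grasp, which encodes tamalin, a scaffold of group I receptors, differed by −0.12, with −0.09 and 0.03 on its other probe sets. Of 8 genes for synaptic partners of group III receptors and for release proteins, 3 were above and 5 below WT, and the median was −0.02. Elfn2 and Elfn1 encode postsynaptic proteins that bind group III receptors across the synaptic cleft, and they differed in opposite directions, by 0.17 and −0.07. Unc13a, a vesicle priming factor, differed by 0.05, and Grip1, a PDZ scaffold, by −0.04.

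Transporters and enzymes set the glutamate that reaches these receptors. Of 16 measured genes, 9 were above and 7 below WT in P4H-TM KO. The median log2 difference was 0.02. At 1.2-fold 2 genes were higher and 1 lower, against 4.12% of all genes higher and 4.91% lower. Slc7a11, the cystine/glutamate antiporter that releases glutamate outside synapses, had 8.36 in P4H-TM KO and 8.05 in WT, a difference of 0.31, with 0.26 on its other probe set. Slc38a3, a glutamine transporter of astrocytes, had 8.79 in P4H-TM KO and 8.50 in WT, a difference of 0.29, with 0.35 on its other probe set. Folh1, the peptidase that degrades the mGluR3 agonist N-acetylaspartylglutamate, had 4.07 in P4H-TM KO and 4.38 in WT, a difference of −0.31 at a signal below the filter, and was the 1 gene at least 1.2-fold lower. Glul, the glutamine synthetase of astrocytes, differed by −0.07.

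**Figure D3:**
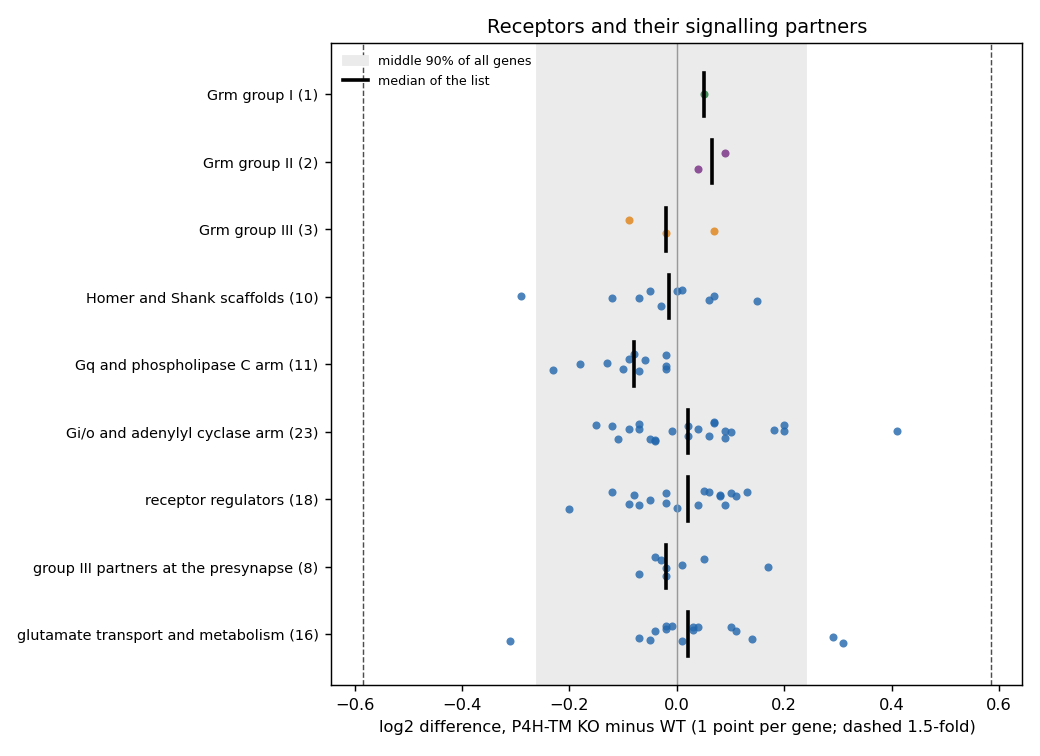
Log2 difference, P4H-TM KO minus WT, of each measured gene of the receptor groups and of 6 lists of signalling partners, with the number of genes in parentheses, black bars at the medians, a grey band over the middle 90% of all genes and dashed lines at 1.5-fold. Each point rests on a single array of either genotype. All 11 points of the Gq and phospholipase C arm lie left of 0, with a median of −0.08.

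Grm2 lies on chromosome 9, as P4htm does, with 65 coding genes between them in the RefSeq order of assembly GRCm38.p6, whereas Grm3, Grm4, Grm5, Grm7 and Grm8 lie on other chromosomes. Of the 57 measured genes in that interval, 28 were above and 27 below WT in P4H-TM KO, and the median log2 difference was 0.00. Hemk1, at 0.78, and Sema3b, at 0.90 with a signal below the filter, were at least 1.5-fold higher, and none was 1.5-fold lower. The shares over all genes were 0.61% higher and 0.148% lower. Slc38a3 lies in the same interval. Beyond it, genes at least 1.5-fold lower, named after their values were seen, were found on either side: Abhd14b, at −0.75, and Abhd14a, at −0.59, lie 10 and 11 coding genes past Grm2, and Spink8, at −2.07, lies 35 coding genes past P4htm on the other side, followed by Ngp, at −0.61 with a signal below the filter. Grm2, at 0.09, was within the middle 90% of all genes.

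**Figure D4:**
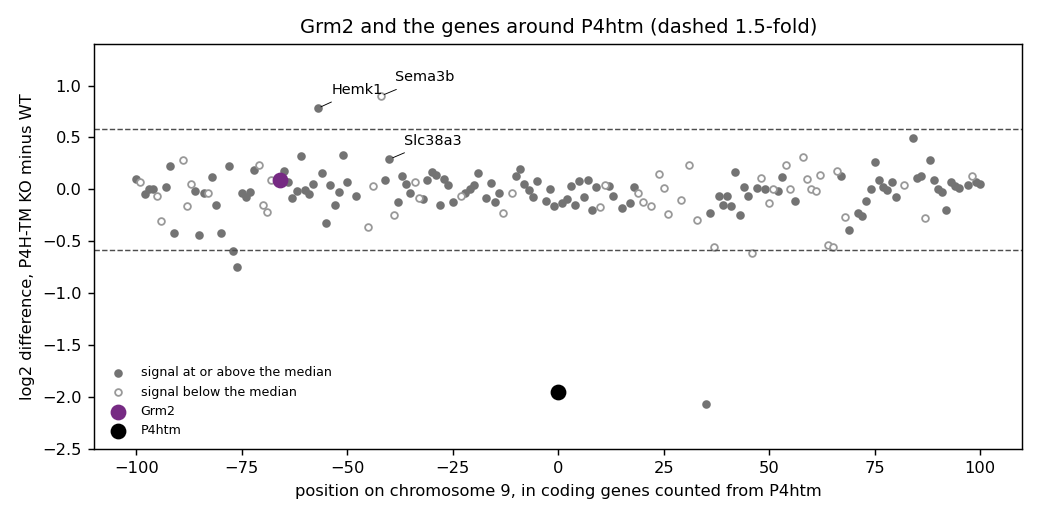
Log2 difference, P4H-TM KO minus WT, of the measured genes within 100 coding genes of P4htm on chromosome 9, in their order along the chromosome, filled where the signal reached the median of all probe sets and open where it did not. Dashed lines mark 1.5-fold. Grm2 (purple) lies near 0 at 0.09, between genes of either sign, and P4htm (black) at −1.95, with Spink8 at −2.07 to its right and Abhd14b and Abhd14a below the dashed line on the left.

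Some markers of other tissues and cells differed between the same arrays. Beside the counts below, 46.0% of all genes were higher and 49.0% lower in P4H-TM KO. For choroid plexus markers the median log2 difference was 1.63, with 11 of 11 genes higher in P4H-TM KO, and the log2 of their summed signal was 15.14 in P4H-TM KO and 14.61 in WT. Most of that sum is Ttr, at 14.86 in P4H-TM KO and 14.49 in WT, which had the smallest difference of the list, 0.37. Meninges markers had a median of 0.32 with 11 of 12 higher, and a summed signal of 12.61 in P4H-TM KO and 11.97 in WT on the log2 scale. Oligodendrocyte markers had a median of −0.27 with 11 of 11 lower (summed signal 15.94 in P4H-TM KO, 16.11 in WT), and astrocyte markers one of −0.065 with 10 of 12 lower (15.69 in P4H-TM KO, 15.74 in WT). Excitatory neuron and interneuron markers had medians of 0.03 and −0.01, and 10 of 11 and 12 of 12 of them were above the signal filter. Oligodendrocyte precursor markers had a median of −0.11 with 5 of 7 lower, hippocampus markers one of −0.095 with 7 of 10 lower, thalamus and cerebellum markers one of −0.05 with 8 of 12 lower, and striatum markers one of −0.08 with 6 of 8 lower. The lowest hippocampus marker, Spink8 at −2.07, is the chromosome 9 gene that lies 35 coding genes from P4htm. The part of these tissue differences in the receptor, Slc7a11, Slc38a3 and Gq arm values was not tested.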

How the data were processed

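Total RNA of cortical tissue was pooled from 4 mice per genotype, labelled with biotin and hybridized to Affymetrix Mouse Genome arrays. Per the methods, array scans were quantified by the authors in the GeneChip Operating System, with normalization in GenePattern, and the submitters' processing notes name RMA, without a version in the sources used here. The authors deposited log2 values per probe set, rounded to 2 decimals, from 2.69 to 14.91, with array medians of 6.39 in P4H-TM KO and 6.38 in WT. RMA draws the distributions of arrays together, so a shift shared by most genes would not be seen. The number of arrays limits the precision.

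Of 45101 probe sets, 64 are controls. Genes were named from 34945 other probe sets with 1 symbol in the platform annotation, with symbols checked by gene ID against the RefSeq table of GRCm38.p6. Probe sets with several symbols (932) were not used. Each gene took its brightest probe set by the mean of both arrays. Differences are P4H-TM KO minus WT. The receptor genes and the gene lists were chosen with earlier results of these data known. Of 98 entries in 6 signalling lists, written from general knowledge, 86 were measured. From each of these lists, genes past 1.5-fold and the 2 highest and 2 lowest differences were named. Alternatives were other ways to combine probe sets, omission of probe sets that can match other transcripts, centred arrays, removal of the signal trend by loess (span 0.3), the signal filter and a 1.2-fold threshold. The fold counts and the loess step were tested on simulated data. The shifts put into genes were far larger than the receptor differences, so that test does not bear on differences of their size. No gene was named for a pattern like that of a receptor, since 2 arrays give 1 difference. Computations ran in Python 3.11.15 (pandas 2.3.3, numpy 2.4.6, statsmodels 0.14.6 for loess), and matplotlib 3.10.9 drew the figures.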

Additional observations from a re-analysis of the deposited data

How the results depend on the processing

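No paired analysis was possible because each genotype has 1 array, and no array could be left out. Single values were taken as stable within the pooled SD of 0.10 between probe sets, medians within that SD divided by the square root of the number of genes, and counts within 1.5 times. Of 36 alternative values of the receptor genes 35 were stable, and no receptor gene reached 1.2-fold under any setting tried. The direction of each receptor gene held in all of them. The exception in size was Grm7, at −0.13 with probe sets averaged, which moved the group III median to −0.09. Grm2, Grm3, Grm4 and Grm8 have 1 probe set each, so settings that combine or omit probe sets repeated their main values. The limit of 0.10 also exceeded every receptor difference on the brightest probe sets, which was at most 0.09 in size. The count of stable values therefore says little about differences of this size. The number of lower genes in the Gq arm was 11 of 11, or 10 of 11 with probe sets combined by mean or median, and 10 of 10 above the signal filter.

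With probe sets averaged, medians were 1.47 for choroid plexus, 0.248 for meninges, 0.005 for oligodendrocyte precursor (against −0.11 on the brightest probe sets), 0.05 for interneuron, −0.00875 for thalamus and cerebellum (against −0.05) and −0.03 for striatum markers (against −0.08). With the median of probe sets, they were 1.47 for choroid plexus, −0.03 for oligodendrocyte precursor, 0.05 for interneuron, −0.055 for hippocampus (against −0.095), −0.015 for thalamus and cerebellum and −0.03 for striatum markers. Leaving out probe sets whose names mark a match to further transcripts, they were 0.045 for receptor regulators, −0.01 for glutamate transport and metabolism and 1.47 for choroid plexus markers. Above the signal filter, they were 1.68 for choroid plexus, −0.01 for excitatory neuron and −0.09 for thalamus and cerebellum markers. There 6 genes were 1.5-fold lower, 340 were 1.2-fold higher and 215 were 1.2-fold lower, since fewer genes were counted. For the remaining shifts the cause was not tested.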
